A study of Mus musculus with 12 samples.

Results

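Cyclins and mitotic regulators were followed by 11 probe sets that the platform annotation assigned to 9 of 10 chosen genes: the D-type cyclins Ccnd1, Ccnd2 and Ccnd3, the cyclins Ccne1, Ccna2 and Ccnb2, the anaphase activator Cdc20, the centromeric histone gene Cenpa and the proliferation antigen gene Mki67. The cyclin B1 gene Ccnb1 has no probe set with a single gene symbol in that annotation, so its expression was not analysed here. The array holds 12488 probe sets, of which 8695 were bright enough to be tested, and these included 10 of the 11 member probe sets, from 8 genes. RNA came from 12 samples of mouse embryonic stem cells of clone C2, a single clone of the E14tg2a line that carries targeted I-SceI sites, recognition sequences for a DNA-cutting endonuclease. All samples share this genotype. Control cells were held in phosphate-buffered saline (PBS, n = 3). Treated cells were exposed in PBS to hydrogen peroxide, an oxidant that crosses membranes, at 100 µM for 15 min (n = 4) or at 5 mM for 30 min (n = 5), and then kept for 1 h in maintenance medium. Dose and duration differ together, so the comparisons are between treatments as given. The sources used here do not say how long the controls stayed in PBS, do not state plainly that they also had the 1 h in medium, and do not say whether separate cultures stand behind the replicates, so the p-values rest on sample-to-sample spread that may be only technical.

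Cyclins are the activating subunits of cyclin-dependent kinases. The D-type cyclins bind the kinases Cdk4 and Cdk6 and relay growth signals in G1, cyclin E1 drives entry into S phase, cyclin A2 acts in S phase and G2, and the B-type cyclins bring cells into mitosis. Cdc20 then activates the anaphase-promoting complex, a ubiquitin ligase that marks securin and the mitotic cyclins for destruction. Cenpa encodes the histone H3 variant that marks centromeres, and Mki67 encodes the Ki-67 protein, which coats mitotic chromosomes and is present in cycling cells. Mouse embryonic stem cells divide fast, with a short G1, and are described as low in D-type cyclins. In PBS the mean percentile within the array was 92.8 for Ccnd3, 78.5 for the brighter and 54.4 for the dimmer Ccnd1 probe set, and 11.3 for Ccnd2. The 2 Ccnd1 values differ although they read 1 gene, so these percentiles do not rank the transcripts.

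The brightest probe set on each array read 7206 to 8904 signal units on the PBS arrays, 14976 to 24225 on the 100 µM arrays and 19733 to 34685 on the 5 mM arrays, and this difference at the bright end touches Cdc20 and Ccnb2, as given below. Pou5f1, a defining gene of pluripotent cells, averaged 4319 units in PBS, 4629 at 100 µM and 5903 at 5 mM, and passed in neither comparison with PBS. All 13 embryonic stem cell markers were bright enough to be tested, and they moved both ways: at 100 µM 4 rose (Klf4 by 1.49 on the log2 scale, Nanog, Sox2 and Dppa5a), 2 fell (Dppa3, with a change of -1.51, and Utf1, with -0.89) and 7 did not pass, and at 5 mM 3 rose (Dppa5a, Gdf3 and Nanog), Fgf4 fell (-0.58) and 9 did not pass. A dimmer Nanog probe set went the other way at 5 mM against PBS (-0.59, adjusted p = 0.159 in limma). Of 12 fibroblast (feeder) markers 7 were tested. Their summed signal was 672 to 988 in PBS, 739 to 917 at 100 µM and 708 to 976 at 5 mM. In this sum Col1a2 was the brightest (385 units in PBS, 493 at 100 µM and 506 at 5 mM). Of these 7, Thy1 fell at 100 µM (30.9 units, against 109 in PBS) and the rest did not pass there, while at 5 mM limma called none of them, with 3 at an unadjusted p under 0.05. The summed signal of 14 tested markers of primitive endoderm, an extraembryonic lineage, was 6088 to 9085 in PBS, 9353 to 9890 at 100 µM and 1054 to 1256 at 5 mM; 6 of the 14 rose at 100 µM and 10 fell at 5 mM relative to PBS. No tested marker in these lists had a group mean of 0, and the markers not tested were not read. In these bulk samples fewer cells of a type and less RNA per cell cannot be told apart. The part of the endoderm change in the member results below was not tested. As a gauge of RNA quality, the Actb signal at the 3′ end over that at the 5′ end was 0.871 to 1.99 in PBS, 1.11 to 1.49 at 100 µM and 1.05 to 1.49 at 5 mM, with control replicate 1 at the top of its group.

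Members moved in both directions under each treatment. At 100 µM, Ccnd1 rose on both of its probe sets, by 1.34-fold and 1.60-fold, while Ccne1 fell to 57.4% and Cdc20 to 73.8% of PBS. At 5 mM, Mki67 fell to 62.2% of PBS on its brighter probe set, Cenpa rose 1.43-fold and the dimmer Ccnd1 probe set rose 1.5-fold. Between the treatments, Ccne1 was 1.55-fold and Cdc20 1.33-fold higher at 5 mM than at 100 µM, and Ccnd1, on its brighter probe set, was 74.6% of its 100 µM level. These sizes come from a limma fit of log2(signal + 10.1) to all 12 arrays, with Benjamini-Hochberg adjusted p-values over all 8695 tested probe sets and 0.05 as the threshold, and the offset understates changes of dim probe sets.

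**Figure D1:**
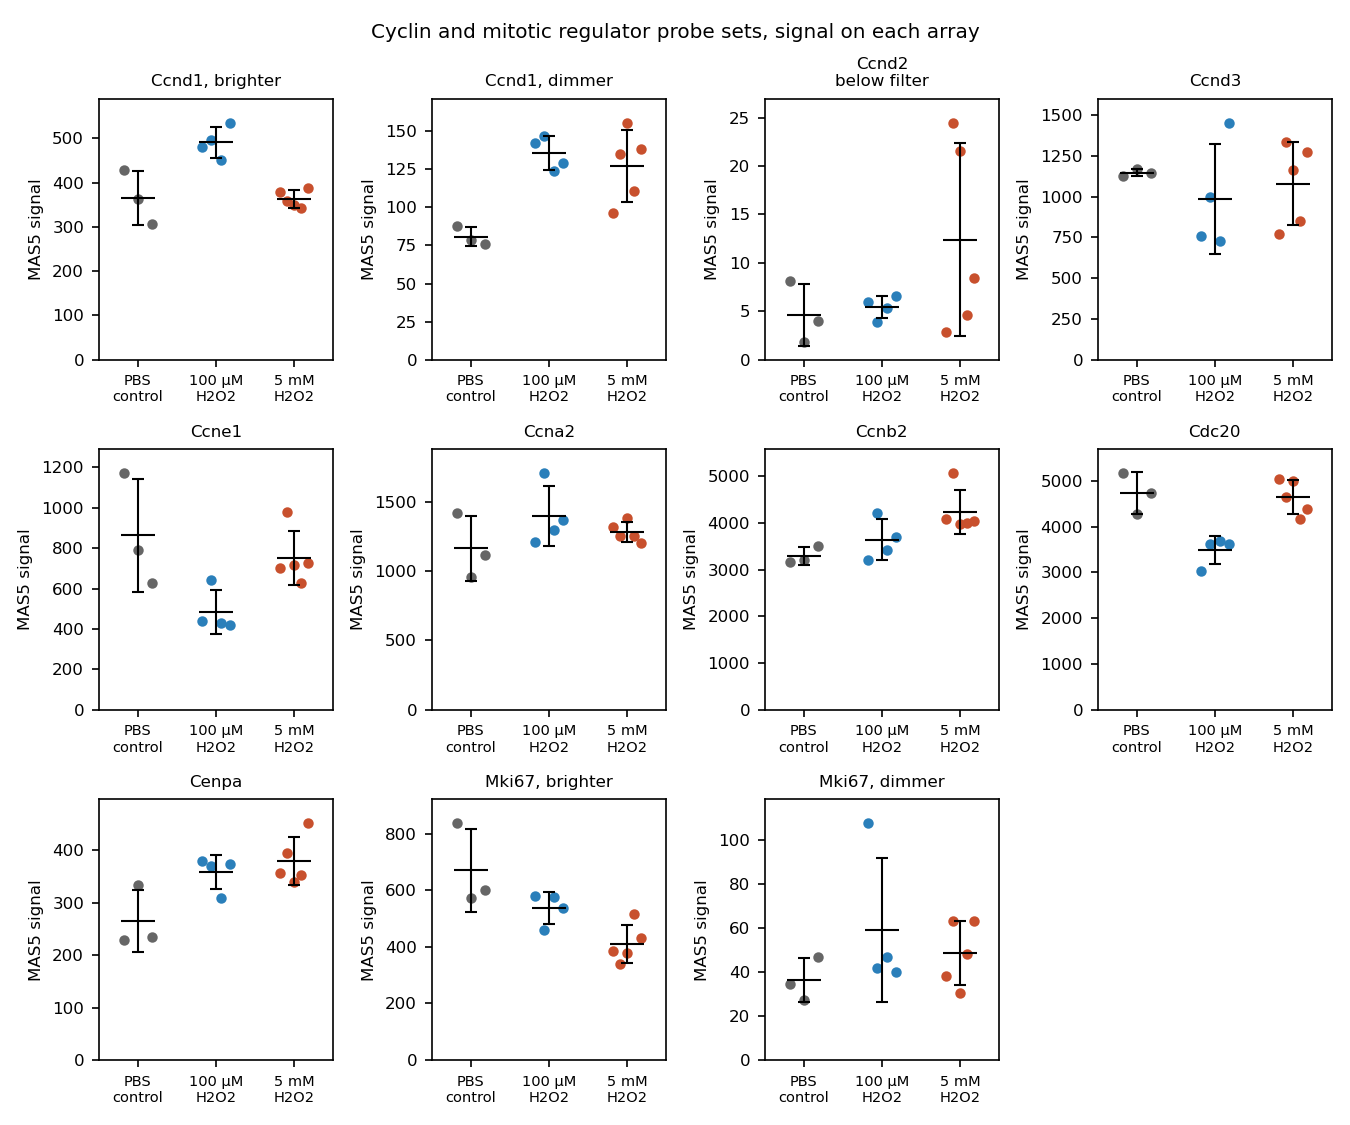
MAS5 signal (linear scale, from 0) of each of the 11 member probe sets on every array, grouped as PBS controls (n = 3), 100 µM (n = 4) and 5 mM (n = 5) hydrogen peroxide. Points are arrays and black bars are the mean with 1 SD; Cdc20 is low on all 4 arrays at 100 µM, and the brighter Mki67 probe set is lowest at 5 mM.

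Counted over the 10 tested member probe sets, 2 rose, 2 fell and 6 did not pass at 100 µM against PBS, where 24.0% of all tested probe sets passed (12.8% higher and 11.2% lower). At 5 mM against PBS 2 rose, 1 fell and 7 did not pass, against 11.7% of all tested probe sets (5.68% higher and 6.03% lower). At 5 mM against 100 µM 2 were higher, 1 was lower and 7 did not pass, against 27.4% of all (12.8% higher and 14.6% lower). With 10 probe sets, 3 or 4 calls are too few to set against these shares. The median log2 change of the 10 member probe sets was 0.20 at 100 µM against PBS (0.08 over all tested probe sets), 0.08 at 5 mM against PBS (0.01 over all) and -0.01 at 5 mM against 100 µM (-0.05 over all). With each of the 8 tested genes read by its brightest probe set, the medians were -0.07, -0.01 and 0.12, in that order. The sign differed in each comparison, so these medians depend on how the probe sets are counted. The comparisons with PBS share the same 3 control arrays.

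**Figure D2:**
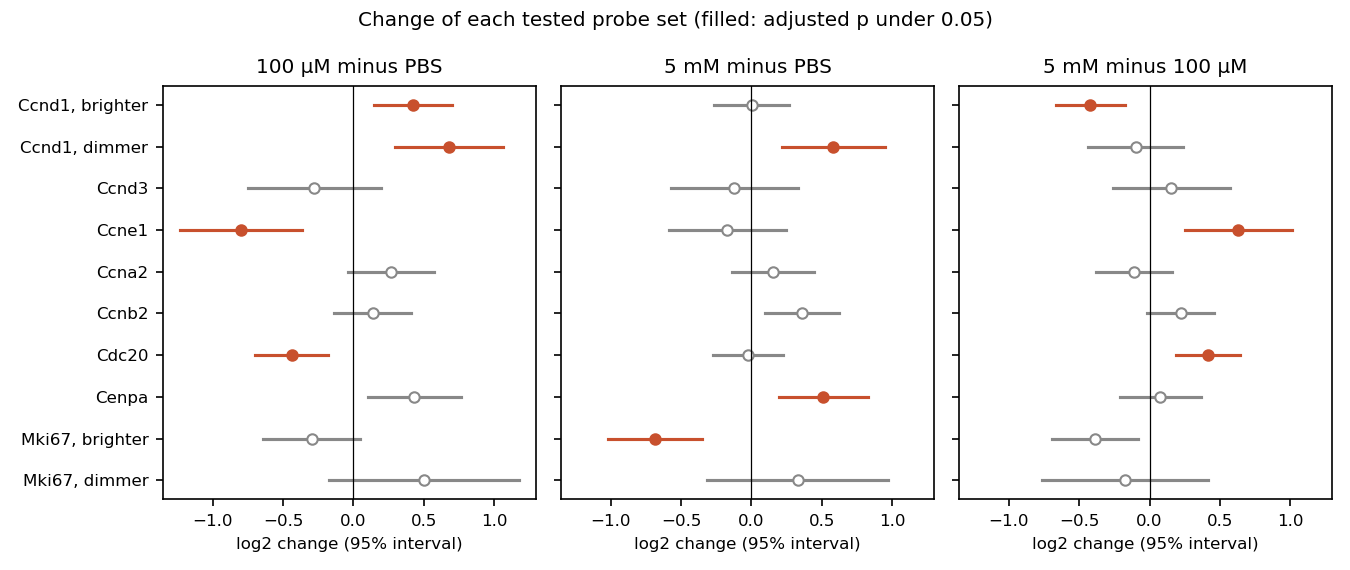
Log2 change (x axis, with 95% intervals of the limma fit) of the 10 tested member probe sets (rows) for 100 µM minus PBS, 5 mM minus PBS and 5 mM minus 100 µM. Filled points passed an adjusted p of 0.05; Ccne1 and Cdc20 are below 0 at 100 µM and near 0 at 5 mM, relative to PBS.

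Among the D-type cyclins, Ccnd1, the cyclin D1 gene and a common target of mitogen signalling, was read by a brighter and a dimmer probe set. On the brighter one the signals were 482, 495, 452 and 536 units at 100 µM, against 428, 362 and 306 in PBS. All 4 arrays at 100 µM lay above all 3 PBS arrays, and the log2 change was 0.43 ± 0.13 (SE; adjusted p = 0.0278 in limma). At 5 mM the same probe set read 379, 358, 349, 342 and 389 units, inside the PBS range, with a log2 difference of 0.00 ± 0.13 from PBS (95% interval -0.26 to 0.27). The 5 mM arrays lay below every 100 µM array, with a log2 change of -0.42 ± 0.12 between the treatments (adjusted p = 0.0121). The dimmer probe set read 143, 147, 124 and 129 units at 100 µM and 96.1, 135, 156, 111 and 139 at 5 mM, against 87.7, 78.6 and 75.9 in PBS. Here both treatments lay above all PBS arrays, by a log2 change of 0.68 ± 0.18 at 100 µM (adjusted p = 0.013) and 0.58 ± 0.17 at 5 mM (adjusted p = 0.0388), and they overlapped each other (-0.10 ± 0.16, adjusted p = 0.683). The probe sets therefore differed in where they placed the 5 mM arrays: level with PBS on the brighter one and level with 100 µM on the dimmer one.

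The rise of Ccnd1 at 100 µM depended on scaling and, on the brighter probe set, also on single arrays. With arrays scaled to a common median it was 0.24 on the brighter probe set (adjusted p = 0.295) and 0.51 on the dimmer one (0.0564), a setting that lowered the median change of all probe sets by 0.17; relative to that median the change of the brighter one was 0.33, against 0.345 with the deposited scaling. On the brighter one the call was also missed when the fit left out control replicate 2 (adjusted p = 0.0743), control replicate 3 (0.145), 100 µM replicate 2 (0.0557) or 100 µM replicate 4 (0.0625), and the call between treatments was lost with a common median (0.11). The 5 mM call of the dimmer probe set was lost in 11 of 23 alternatives, among them quantile normalization (0.0513), a common median (0.0731) and leaving out control replicate 1 (0.0502), 2 (0.12) or 3 (0.123) or 5 mM replicate 2 (0.0706), 3 (0.0829) or 5 (0.0771).

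Ccnd3, the cyclin D3 gene, did not pass in any comparison, and its arrays were widely spread. It read 1127, 1170.0 and 1144 units in PBS, 758, 997, 726 and 1454 at 100 µM, and 771, 1336, 1163, 853 and 1271 at 5 mM. The PBS arrays were close together, while each treatment had arrays both above and below them. The log2 difference from PBS was -0.28 at 100 µM (95% interval -0.75 to 0.20, adjusted p = 0.405) and -0.12 at 5 mM (-0.57 to 0.33, adjusted p = 0.766). Ccnd2, the cyclin D2 gene, fell below the brightness limit and was not tested. Its signals ran from 1.83 to 8.08 units in PBS, 3.87 to 6.59 at 100 µM and 2.85 to 24.5 at 5 mM, where 2 of the 5 arrays, at 24.5 and 21.5, stood above the rest.

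Ccne1, the cyclin E1 gene, was lower at 100 µM. It read 441, 644, 429 and 422 units at 100 µM, against 1173, 794 and 628 in PBS. The groups overlapped by 1 array at each end, since 100 µM replicate 2 (644) was above control replicate 3 (628). The mean was 484 ± 107 (SD, n = 4) at 100 µM and 865 ± 280 (SD, n = 3) in PBS, a log2 change of -0.80 ± 0.20 (SE; adjusted p = 0.0107 in limma). Without control replicate 1 it was -0.56 and the call was lost (adjusted p = 0.0546), the only one of 23 alternatives in which it was. At 5 mM Ccne1 read 704, 979.9, 718, 626 and 724 units, within the PBS range but for one array just below it, and the log2 difference from PBS was -0.17 (95% interval -0.59 to 0.24, adjusted p = 0.621). The 5 mM arrays were on average higher than the 100 µM arrays by a log2 change of 0.63 ± 0.18 (adjusted p = 0.0156). These groups overlapped too, since 100 µM replicate 2 (644) was above 5 mM replicate 4 (626). The difference between the treatments passed in all 23 alternatives, with values of 0.53 to 0.77.

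The S-phase and mitotic cyclins did not pass in any comparison. Ccna2, the cyclin A2 gene, read 1209.8, 1709, 1296 and 1372 units at 100 µM and 1314, 1252, 1385, 1256 and 1201 at 5 mM, against 1419, 961 and 1113 in PBS. Both treatments lay largely inside the PBS range, with log2 differences of 0.27 (95% interval -0.04 to 0.57, adjusted p = 0.198) at 100 µM and 0.15 (-0.14 to 0.45, adjusted p = 0.515) at 5 mM. The 100 µM difference passed with array quality weights (adjusted p = 0.0409) and without control replicate 1 (0.42, adjusted p = 0.0496). Ccnb2, which encodes cyclin B2, read 4095, 5078, 3973, 4004 and 4052 units at 5 mM, against 3168, 3200.3 and 3508 in PBS. All 5 arrays at 5 mM lay above the PBS arrays, yet the log2 difference of 0.36 ± 0.12 (SE) did not pass (adjusted p = 0.0716), and it was 0.08 after quantile normalization (adjusted p = 0.674). At 100 µM Ccnb2 read 3217, 4226, 3415 and 3708 units, overlapping PBS (0.14, adjusted p = 0.47).

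Cdc20, the activator of the anaphase-promoting complex, was lower at 100 µM than in PBS. It read 3027, 3609, 3681 and 3616 units at 100 µM, against 5173, 4263 and 4743 in PBS. Every 100 µM array was below every PBS array, and the log2 change was -0.44 ± 0.12 (SE; adjusted p = 0.0175 in limma). The call did not hold without control replicate 1 (-0.37, adjusted p = 0.0666) or control replicate 3 (-0.43, adjusted p = 0.0529). At 5 mM the signals were 5032, 4643, 4992, 4162 and 4391 units, all above the 100 µM arrays and, but for one, inside the PBS range. The change between the treatments was 0.41 ± 0.11 (adjusted p = 0.0093), and the difference of 5 mM from PBS was -0.02 (95% interval -0.28 to 0.23, adjusted p = 0.919).

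For Cdc20 the placement of 5 mM against PBS turned on how the arrays were brought to a common scale. By rank within its own array, Cdc20 stood at the 98.20 to 98.66 percentile at 100 µM and at 98.58 to 98.83 at 5 mM, against 99.19 to 99.30 in PBS. Both treatments lay below PBS on this measure. After quantile normalization, which works from ranks, Cdc20 had a log2 change of -0.60 at 5 mM against PBS (adjusted p = 0.000583) and -0.78 at 100 µM against PBS (adjusted p = 4.67e-05), and the difference between treatments was 0.19 (adjusted p = 0.112). The lower level at 100 µM than in PBS was thus found with either scale, while the level at 5 mM was equal to PBS within its interval on one scale and below it on the other. By the same measure Ccnb2 stood at 98.33 to 98.76 at 5 mM and 98.34 to 98.71 at 100 µM, against 98.12 to 98.53 in PBS, with overlapping ranges.

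**Figure D3:**
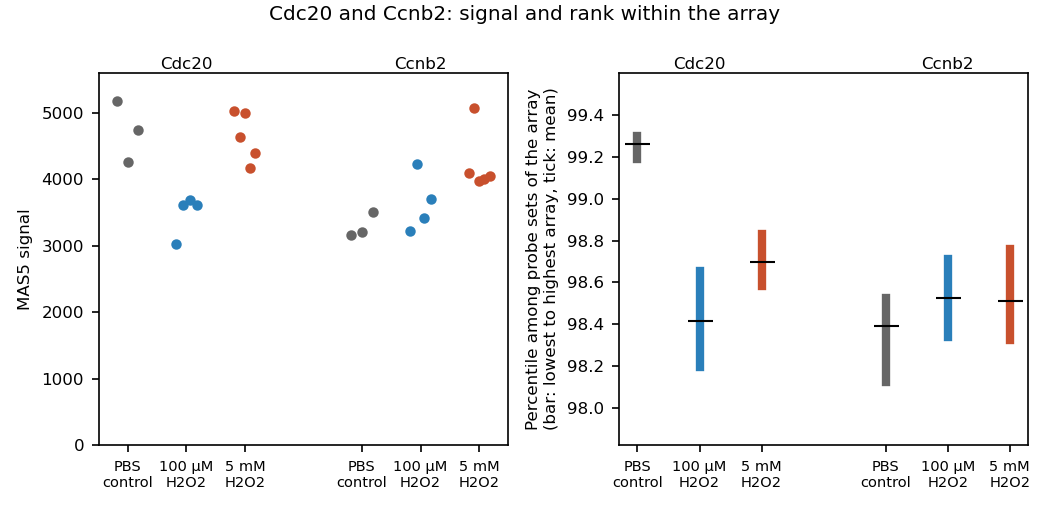
Left, MAS5 signal of Cdc20 and Ccnb2 on each array (linear scale, from 0); right, their percentile among all non-control probe sets of the same array (bar from lowest to highest array, tick at the mean; the axis does not start at 0). Cdc20 at 5 mM overlaps PBS by signal, and by rank lies below it.

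Cenpa, the centromeric histone H3 variant, was higher at 5 mM. It read 358, 395, 339, 353 and 452 units at 5 mM, against 229, 333 and 235 in PBS. All 5 arrays at 5 mM were above the highest PBS array, though the nearest, at 339, exceeded control replicate 2 by little, and the log2 change was 0.51 ± 0.15 (SE; adjusted p = 0.0354 in limma). At 100 µM it read 380.3, 370.0, 309.8 and 374 units, a log2 difference of 0.43 ± 0.16 from PBS that did not pass (adjusted p = 0.0526), and the treatments did not differ past the threshold (0.08, 95% interval -0.21 to 0.37). The 5 mM call was lost in 9 of 23 alternatives, among them a common median (adjusted p = 0.0533) and leaving out control replicate 1 (0.116) or 3 (0.144) or 5 mM replicate 1 (0.0566), 2 (0.0623) or 5 (0.0799). The 100 µM difference passed in 5 of them, among them quantile normalization (0.0381) and leaving out control replicate 2 (0.0192), 100 µM replicate 3 (0.0443) or 5 mM replicate 5 (0.0489).

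Mki67, which encodes the proliferation antigen Ki-67, gave the member change at 5 mM that was most stable across settings. Its brighter probe set read 386, 340.4, 378, 516 and 431 units at 5 mM, against 837, 572 and 599.5 in PBS. All 5 arrays at 5 mM were below all 3 PBS arrays, with means of 410.4 ± 67.2 (SD, n = 5) at 5 mM and 669.5 ± 146 (SD, n = 3) in PBS. The log2 change of -0.69 ± 0.16 (SE; adjusted p = 0.0103 in limma) passed in all 23 alternatives, with values from -0.79 to -0.52. At 100 µM it read 579.9, 458, 577 and 535 units, with a mean between those of the other groups and arrays that overlapped both. The log2 difference of 100 µM from PBS was -0.30 (95% interval -0.64 to 0.05, adjusted p = 0.207). The difference of 5 mM from 100 µM was -0.39 ± 0.14 (adjusted p = 0.0551) and passed in 6 of 23 alternatives, among them leaving out control replicate 1 (0.0293), 100 µM replicate 2 (0.0411) or 5 mM replicate 4 (0.0225).

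The second Mki67 probe set was dim and did not follow the first. It read 38.4, 63.0, 30.4, 48.4 and 63.3 units at 5 mM, against 34.7, 27.1 and 47.0 in PBS, and 108, 42.0, 46.8 and 39.9 at 100 µM. The groups overlapped, and the log2 difference of 5 mM from PBS was 0.33 (95% interval -0.32 to 0.97, adjusted p = 0.534). The fall of Mki67 at 5 mM therefore rests on 1 of its 2 probe sets. Its within-group SD of 0.44 on the log2 scale was at the 81.2 percentile of all tested probe sets (median SD 0.27), while that of the brighter one was 0.22, at the 32.5 percentile.

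The precision of the other members differed in the same way. The within-group SD on the log2 scale was 0.13 for Cdc20 (the 4.55 percentile of all tested probe sets), 0.14 for the brighter Ccnd1 probe set (6.03) and 0.14 for Ccnb2 (8.17), which are among the steadier probe sets on the array. It was 0.19 for the dimmer Ccnd1 probe set, Ccna2 and Cenpa, 0.31 for Ccne1 (60.6) and 0.35 for Ccnd3 (68.7). Steady members could thus pass with changes of about 0.4 on the log2 scale, and for Ccnd3 the 95% interval of the 100 µM difference from PBS reached from -0.75 to 0.20.

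Sequence upstream of the annotated start was at hand for 7 of the 10 member genes, in 8 promoter windows from RefSeq records of GRCm38.p6; Ccnd1, Ccnd2 and Ccna2 have no entry in this table. The 250 bases before the start are printed for Ccne1 and Cdc20, which were both lower at 100 µM, and for Cenpa and Mki67, which moved at 5 mM, since genes of these classes are known to be controlled through short promoter elements. Capitals mark matches to CCAAT, the binding site of the factor NF-Y, and to TTTGAA, the cell cycle homology region through which repressor complexes silence mitotic genes outside G2 and mitosis, on either strand (CCAAT on the opposite strand reads ATTGG).
Ccne1: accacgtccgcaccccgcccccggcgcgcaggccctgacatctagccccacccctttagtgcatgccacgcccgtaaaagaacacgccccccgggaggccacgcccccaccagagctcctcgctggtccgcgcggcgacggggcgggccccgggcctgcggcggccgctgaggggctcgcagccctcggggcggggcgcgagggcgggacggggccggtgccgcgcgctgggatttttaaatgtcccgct
Cdc20: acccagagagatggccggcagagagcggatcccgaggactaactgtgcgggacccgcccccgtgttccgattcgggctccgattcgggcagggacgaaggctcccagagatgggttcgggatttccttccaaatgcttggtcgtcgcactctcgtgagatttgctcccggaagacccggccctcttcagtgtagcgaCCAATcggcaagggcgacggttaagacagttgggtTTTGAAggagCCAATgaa
Cenpa: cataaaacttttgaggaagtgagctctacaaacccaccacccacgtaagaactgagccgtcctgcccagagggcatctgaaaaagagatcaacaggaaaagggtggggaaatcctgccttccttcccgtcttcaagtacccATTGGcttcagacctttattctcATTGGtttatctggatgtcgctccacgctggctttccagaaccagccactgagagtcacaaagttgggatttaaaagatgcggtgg
Mki67: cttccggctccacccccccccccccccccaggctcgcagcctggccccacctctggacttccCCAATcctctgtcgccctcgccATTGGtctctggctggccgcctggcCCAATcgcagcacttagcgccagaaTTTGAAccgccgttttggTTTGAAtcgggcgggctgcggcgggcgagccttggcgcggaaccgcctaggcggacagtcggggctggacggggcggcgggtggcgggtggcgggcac
The Ccne1 window (chr7:38107491-38107740, minus strand) held none of the motifs searched. The Cdc20 window (chr4:118437344-118437593, minus strand) held CCAAT at 53 to 49 and at 8 to 4 bases before the start and TTTGAA at 18 to 13 bases before it. The Cenpa window (chr5:30666636-30666885, plus strand) held 2 CCAAT matches, both on the opposite strand, at 109 to 105 and 86 to 82 bases before the start. The Mki67 window (chr7:135716380-135716629, minus strand) held 3 CCAAT matches, the nearest at 141 to 137 bases before the start, and TTTGAA at 116 to 111 and 98 to 93. CCAAT was present in 6 of the 8 member windows and in 33.8% of all 32851 windows in the table, and TTTGAA in 3 of 8 and in 16% of all. CCAAT and TTTGAA occurred together in the windows of Ccnb2, Cdc20 and Mki67 and in 5.55% of all windows. The E2F motifs TTTGGCGC, TTTCCCGC, TTTCGCGC and TTTGCCGC, which can overlap one another, were in none of the 8 and at least 1 of them was in 1.86% of all windows, and TGACGTCA, the cyclic AMP response element, was in none of the 8 and in 1.55% of all. These matches are descriptions of letters. Windows that hold both CCAAT and TTTGAA belong to Cdc20, lower at 100 µM, to Mki67, lower at 5 mM, and to Ccnb2, which passed in neither comparison.

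By closeness of pattern over the 12 arrays, measured as the root mean square (RMS) difference of log2 values centred on each gene's own mean, the genes nearest to Ccne1 were Slc7a3, an amino acid transporter gene (0.19), Las1l, a ribosome biogenesis gene (0.20), and Uqcrh, a gene of respiratory complex III (0.20), where Ccne1 itself varied by an RMS of 0.43 about its mean. Slc7a3 averaged 742 units in PBS, 399.9 at 100 µM and 620.2 at 5 mM. Nearest to Mki67 were Ube2e1, a ubiquitin-conjugating enzyme gene (0.15), Ell, a transcription elongation factor gene (0.15), and Nbr1, an autophagy receptor gene (0.16), where Mki67 varied by 0.34. Ell averaged 396 units in PBS, 316 at 100 µM and 238 at 5 mM.

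Other cell cycle genes, read by their brightest probe set, placed these changes among their partners. The counts in the lists below are to be read beside the shares over all tested probe sets. Of these, 24.0% passed at 100 µM against PBS, 11.7% at 5 mM against PBS and 27.4% at 5 mM against 100 µM. Their median log2 changes were 0.08, 0.01 and -0.05, in that order. Whether a list departs from these shares was not tested. Among CDK inhibitors, which block cyclin-kinase complexes, Cdkn1c moved most at 100 µM. Cdkn1c, the imprinted gene of the inhibitor p57, averaged 42.8 ± 11.6 units (SD, n = 4) at 100 µM, against 428 ± 74.7 (SD, n = 3) in PBS, a log2 change of -3.07 ± 0.19 (SE; adjusted p = 1.06e-07 in limma), and 655 ± 77.7 (SD, n = 5) at 5 mM. The 5 mM rise over PBS was 0.61 (adjusted p = 0.0401) and was lost in 11 of 23 alternatives, with adjusted p of 0.0588 to 0.197 without any 1 of control replicates 2 and 3 or 5 mM replicates 1, 3, 4 and 5. Cdkn1a, the p53-induced inhibitor gene p21, rose at 100 µM by 0.98 ± 0.20 (adjusted p = 0.00241) and was lower at 5 mM than at 100 µM, with a log2 change of -1.02 ± 0.17 (adjusted p = 0.000372). Of the 8 inhibitor genes, 2 rose, 1 fell and 5 did not pass at 100 µM (median 0.13), and 1 rose and 7 did not pass at 5 mM (median -0.04). Between the treatments 1 was higher, 2 were lower and 5 did not pass, with Cdkn1c at 3.68 ± 0.17 (adjusted p = 4.42e-10).

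Of 7 other cyclins, 2 rose, 1 fell and 4 did not pass at 100 µM (median log2 change 0.35). Ccng1, a p53 target that is not known to drive the cycle through a classical kinase, rose by 1.57 ± 0.18 (adjusted p = 3.95e-05). Ccnt1, a cyclin of transcription elongation, rose by 0.92 ± 0.25 (adjusted p = 0.0139), and by 0.56 without control replicate 1, where it did not pass (0.0643). None of the 7 passed at 5 mM against PBS in limma (1 had an unadjusted p under 0.05; median -0.02), the largest value being 0.58 for Ccnt1 (adjusted p = 0.123), or 0.22 without control replicate 1. Between the treatments 1 was higher and 2 were lower, with Ccng1 at -1.86 ± 0.16 (adjusted p = 6.64e-07). Among 14 CDKs and their regulators 3 fell and 11 did not pass at 100 µM (median -0.25), with Cdk9, the elongation kinase that pairs with Ccnt1, at -0.85 ± 0.15 (adjusted p = 0.00117) and Cdc37, a kinase-specific chaperone gene, at -0.66 ± 0.16 (adjusted p = 0.00768). None of the 14 passed at 5 mM in limma (4 had an unadjusted p under 0.05; median -0.17), the largest value being -0.45 for Cdk9 (adjusted p = 0.0606; 0.0316 without control replicate 1). Between the treatments 4 were higher and 2 lower, with Cdc37 at 0.59 ± 0.14 (adjusted p = 0.005). At 100 µM against PBS, dimmer probe sets not counted here passed in limma and disagreed with the brightest. Mnat1 gave 0.79 (adjusted p = 0.0125) against -0.22 on its brightest, and Cdc25c gave -0.67 (adjusted p = 0.00637) against 0.17.

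Among 14 mitotic kinases and spindle checkpoint genes, 1 rose, 3 fell and 10 did not pass at 100 µM (median -0.16). Birc5 (survivin), a subunit of the chromosomal passenger complex, changed by -0.54 ± 0.15 (adjusted p = 0.0147; 0.068 without control replicate 1) and Cdca8 (borealin), another subunit, by -0.45 ± 0.12 (adjusted p = 0.0104; 0.0504 without control replicate 2). Aurkb (-0.39, adjusted p = 0.135) and Incenp (-0.16, adjusted p = 0.503), of the same complex, did not pass. Nek2, a centrosomal kinase gene, changed by 0.45 ± 0.12 (adjusted p = 0.0153), a call lost with a common median (0.271) and without control replicate 2 (0.0521) or 3 (0.0572). At 5 mM 1 rose, 1 fell and 12 did not pass (median -0.05). The gene that rose was again Nek2, by 0.39 ± 0.12 (adjusted p = 0.0403), a call that held in 15 of 23 alternatives. Nek2 did not differ past the threshold between the treatments (-0.06, adjusted p = 0.742). The checkpoint kinase gene Bub1 changed by -0.51 ± 0.16 (adjusted p = 0.0433), a call lost in 13 of 23 alternatives, with adjusted p of 0.0502 to 0.184 without any 1 of control replicates 2 and 3, 100 µM replicates 1 and 4 or 5 mM replicates 1, 2, 3 and 5, and a dimmer Bub1 probe set gave -0.01. Between the treatments 3 were higher, none was lower and 11 did not pass, with Cdca8 at 0.38 ± 0.10 (adjusted p = 0.0102). A dimmer Plk1 probe set, not counted here, passed in limma at 5 mM against PBS (0.58, adjusted p = 0.026), where the brightest gave 0.17 (0.374). A dimmer Incenp probe set passed between the treatments (0.42, adjusted p = 0.044), where the brightest gave -0.01.

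Among 15 genes of the anaphase-promoting complex, the related SCF ligases and their regulators, 2 rose, 3 fell and 10 did not pass at 100 µM (median -0.20). Fbxw7, the SCF receptor that targets cyclin E1 for degradation, averaged 252 ± 38.9 units (SD, n = 4) at 100 µM, against 73.9 ± 14.1 (SD, n = 3) in PBS, a log2 change of 1.65 ± 0.19 (SE; adjusted p = 2.91e-05 in limma). At 5 mM 2 rose and 13 did not pass (median 0.01). Ube2c, the conjugating enzyme of the anaphase-promoting complex, changed by 0.80 ± 0.23 (adjusted p = 0.0335; lost without control replicate 2 (0.0917) or 3 (0.149) or 5 mM replicate 2 (0.0717) or 5 (0.0754)), and the SCF core gene Skp1 by 0.61 ± 0.13 (adjusted p = 0.00702; 0.0557 without control replicate 2). Ube2c was also called higher at 100 µM, by 0.76 ± 0.24 (adjusted p = 0.0302), a call that held in 17 of 23 alternatives. Between the treatments 5 were higher, 3 lower and 7 did not pass, with Fbxw7 at -1.44 ± 0.16 (adjusted p = 9.68e-06) and Skp1 at 0.58 ± 0.12 (adjusted p = 0.00211). Ube2c did not differ past the threshold between them (0.04, adjusted p = 0.912).

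Among 27 kinetochore, spindle and chromosome genes, 3 rose, 3 fell and 21 did not pass at 100 µM (median -0.02), and 4 rose, 2 fell and 21 did not pass at 5 mM (median 0.17). In both comparisons with PBS 22.2% were called, where 24.0% (100 µM) and 11.7% (5 mM) of all tested probe sets passed. Kif23, a kinesin of the cytokinetic midzone, fell in both, with log2 changes of -1.02 ± 0.16 at 100 µM (adjusted p = 0.000488) and -0.88 ± 0.16 at 5 mM (adjusted p = 0.00202). Nusap1, a microtubule-binding spindle gene, rose at 100 µM by 0.78 ± 0.15 (adjusted p = 0.0022), while a dim probe set of it gave 0.45 (adjusted p = 0.303). Ran, a GTPase of nuclear transport and spindle assembly read at the bright end of the scale, was higher by 0.97 ± 0.20 at 100 µM (adjusted p = 0.00297) and 1.26 ± 0.19 at 5 mM (adjusted p = 0.000445), and neither passed after quantile normalization (adjusted p = 0.657 and 0.567). Between the treatments 7 were higher, 4 lower and 16 did not pass, with the centromere gene Cenpb at 0.82 ± 0.16 (adjusted p = 0.00128) and the microtubule polymerase gene Ckap5 at 0.78 ± 0.15 (adjusted p = 0.00105). For Kif20a at 5 mM against PBS, a dimmer probe set, not counted here, passed in limma (-0.44, adjusted p = 0.0169), while the brightest gave 0.35 (0.183).

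**Figure D4:**
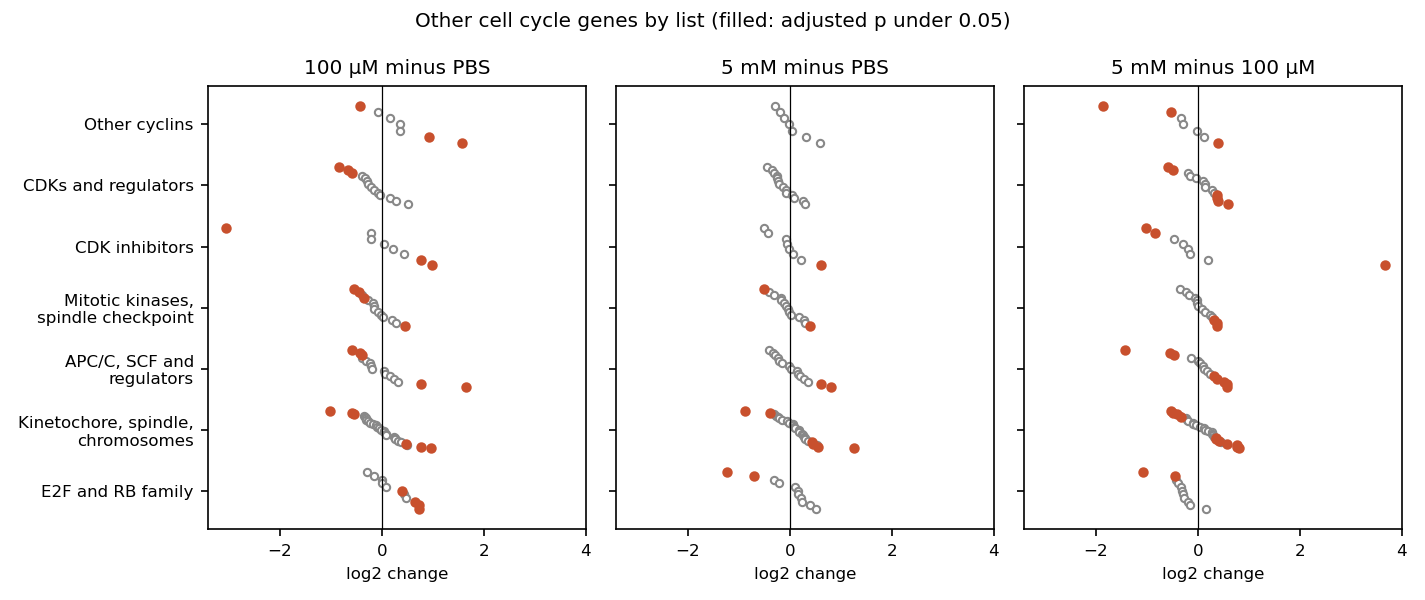
Log2 change (x axis) of each tested gene in 7 lists of cell cycle genes (rows) for 100 µM minus PBS, 5 mM minus PBS and 5 mM minus 100 µM; each point is 1 gene, read by its brightest probe set. Filled points passed an adjusted p of 0.05; the outlying point among CDK inhibitors is Cdkn1c, at -3.07 for 100 µM minus PBS and 3.68 for 5 mM minus 100 µM.

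Of the 11 tested genes of the E2F and RB family and their partners, which control transcription at the entry to S phase and of mitotic genes, 4 rose and 7 did not pass at 100 µM (median 0.39). E2f5, a repressive E2F, rose by 0.65 ± 0.14 (adjusted p = 0.00354), Lin9, a subunit of the complex that switches mitotic genes on and off, by 0.73 ± 0.22 (adjusted p = 0.0238) and Foxm1, an activator of mitotic genes, by 0.72 ± 0.21 (adjusted p = 0.0187). The call of Lin9 was lost with a common median (0.104) and without control replicate 3 (0.139) or 100 µM replicate 2 (0.0521) or 3 (0.0608). That of Foxm1 was lost with a common median (0.0655) and without control replicate 2 (0.0668) or 100 µM replicate 4 (0.0508), and another Foxm1 probe set gave 0.27 (adjusted p = 0.405). At 5 mM 2 fell and 9 did not pass (median 0.15). Rb1, the retinoblastoma gene, averaged 54.2 ± 8.77 units (SD, n = 5) at 5 mM, against 143 ± 37.6 (SD, n = 3) in PBS, a log2 change of -1.23 ± 0.20 (SE; adjusted p = 0.000677), and a dim second probe set gave -1.27 (adjusted p = 0.00623). Rb1 was also lower at 5 mM than at 100 µM, with a log2 change of -1.07 ± 0.18 (adjusted p = 0.00036). A dimmer Tfdp1 probe set, not counted here, passed in limma at 100 µM (1.21, adjusted p = 0.0296) and at 5 mM (1.15, adjusted p = 0.0498) against PBS. The brightest Tfdp1 probe set gave 0.07 and -0.21 and did not pass.

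Genes of the p53 arrest response, which include Cdkn1a and Ccng1 named above, differed between treatments. At 100 µM, 11 were tested, with 6 higher, 1 lower and 4 short of the threshold (median 0.64). The largest change there was that of Plk2, at 1.92 ± 0.17 (adjusted p = 3.64e-06 in limma). None passed at 5 mM in limma (median -0.22), where 4 had an unadjusted p under 0.05. The largest value at 5 mM was -0.62 for Sesn1 (adjusted p = 0.0577). It passed in 4 of 23 alternatives, among them leaving out control replicate 1 (0.00561). Between the treatments 7 were lower at 5 mM and 4 did not pass (median -0.67). Mdm2, the ligase gene that restrains p53, changed by -2.12 ± 0.20 in that comparison (adjusted p = 1.25e-06).

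**Figure D5:**
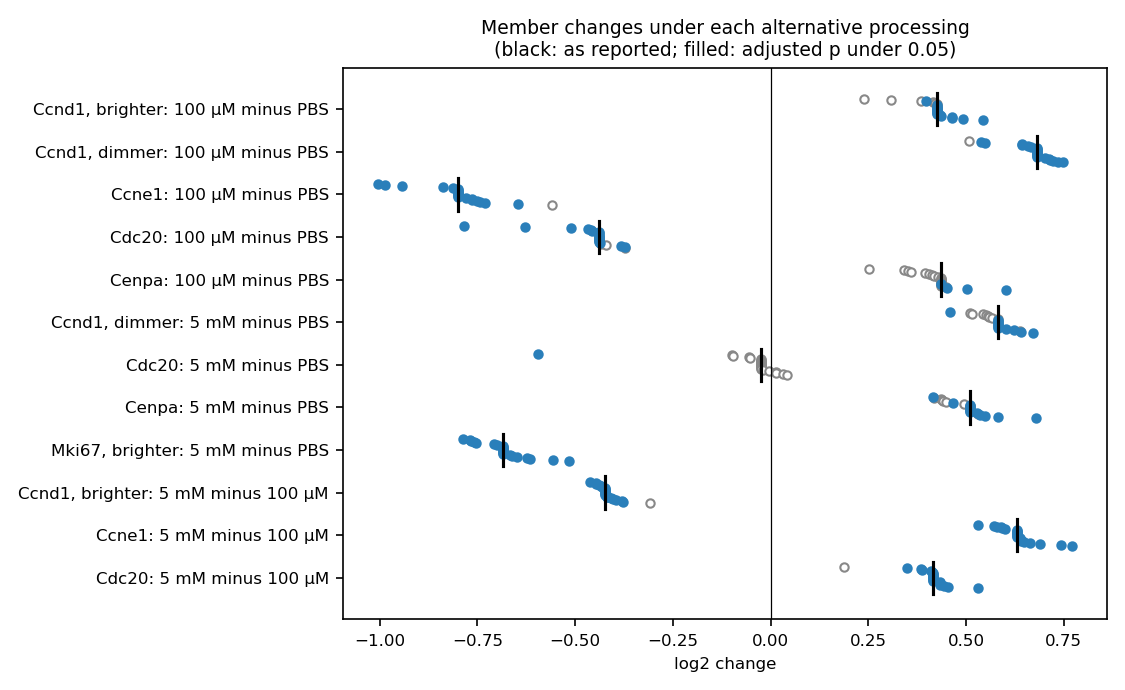
Log2 change (x axis) of the member probe sets that passed as reported or under another scaling of the arrays (rows name the gene and the comparison), as reported (black tick) and under each alternative processing or left-out array (points; filled where the adjusted p was under 0.05). Mki67 at 5 mM minus PBS and Ccne1 at 5 mM minus 100 µM are filled throughout; the lone filled point of Cdc20 at 5 mM minus PBS is quantile normalization.

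Across these alternatives the members whose calls held throughout were Mki67 (brighter probe set) at 5 mM against PBS and Ccne1 at 5 mM against 100 µM. Ccne1 at 100 µM against PBS, the dimmer Ccnd1 probe set at 100 µM against PBS, the brighter one at 5 mM against 100 µM and Cdc20 at 5 mM against 100 µM each lost their call in 1 alternative.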

How the data were processed

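RNA of 12 samples was hybridised to Affymetrix MG_U74Av2 arrays. The deposited values are intensities on a linear scale, 1 per probe set and array; per the submitters' processing notes they are MAS5 signals (version not given in the sources used). The deposited scaling was kept, since trimmed means (2% at each end) differed by 0.0195% between arrays. Groups and replicate numbers came from the sample titles.

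The log2 of each intensity was taken after 10.1 units were added, the 20th percentile of all values. The 66 control probe sets were left out, and probe sets with a mean log2 value above the 30th percentile were tested (8695). Gene names came from the platform annotation, updated through RefSeq records (GRCm38.p6): 10833 probe sets outside the controls had 1 symbol, 396 had several and 1193 were not listed. limma 3.58.1 (R 4.3.3) fitted group means over the 12 arrays, with a variance trend in eBayes, two-sided, with Benjamini-Hochberg adjustment. The steps were tested on simulated data. Arrays have no read depth; their number limits the precision.

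The members, lists, tests and alternatives were chosen with earlier results of these data known. All members are named. From each of 8 lists of other cell cycle genes, up to 3 of the largest changes past the threshold in each comparison, or the largest where none passed, form the named list genes. Not all of these are described above. For the 2 members with the widest range of group means the 3 nearest genes are given.

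Alternatives were quantile normalization, a common median, a floor or a larger offset, other filters, no variance trend, array quality weights, fits of 2 groups, the replicate number as a block, leaving out probe sets with a mean signal above 2000, and leaving out each array. Recomputing the lists and their named genes under these was added after the data were seen.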

Additional observations from a re-analysis of the deposited data

Results flagged for a closer look

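In groups of 4 or 5 arrays, 92 combinations of a member or named gene and a group were checked for an array that stands apart on the log2 scale (a gap to its neighbour that exceeds Dixon's 95% critical share of the group's range), and 9 were found; chance gives about 1 in 20. Among members at 100 µM, Ccne1 read 644 units on replicate 2 against 421.7 to 441 on the others, Cdc20 3027 on replicate 1 against 3609 to 3681, Cenpa 309.8 on replicate 3 against 370.0 to 380.3, and the dim Mki67 probe set 107.6 on replicate 1 against 39.9 to 46.8. At 5 mM, Ccnb2 read 5078 on replicate 2 against 3973 to 4095. Among other named genes, Stmn1 read 4311 against 3676 to 3767 at 100 µM replicate 2, E2f8 116.8 against 171.2 to 179.8 at 100 µM replicate 3, Cdk9 598.4 against 777.3 to 847.1 at 5 mM replicate 5 and E2f5 235.7 against 205.6 to 207.7 at 5 mM replicate 4. The arrays that stood apart were not the same for all genes: at 100 µM they were replicates 1, 2 and 3.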

How the results depend on the processing

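Over 681 recomputed member values, 633 kept their side of the threshold, 34 lost a call, 14 gained one and none reversed a call; 16 changed sign while called in neither setting. Over 1330 values of named list genes, 1197 kept theirs, 126 lost a call, 7 gained one and none reversed. Of the 10 member probe sets, the number called at 5 mM against PBS was 3 as reported, and 1 with a common median, with only those groups in the fit or with the replicate block; at 100 µM against PBS it was 4 as reported and 2 with a common median or the replicate block. Leaving out 1 array gave 1 to 3 at 5 mM against PBS (1 without control replicate 1 or 3 or 5 mM replicate 2 or 5), 2 to 5 at 100 µM against PBS (2 without control replicate 3) and 3 to 4 at 5 mM against 100 µM. Over all probe sets, 1018 passed at 5 mM against PBS, and 1655 with array quality weights, 597 with the replicate block and 493 to 1019 without 1 array (493 without control replicate 2 and 602 without control replicate 3). With a common median the share of calls that were higher was 33.6% at 5 mM against PBS (48.5% as deposited), 27.7% at 100 µM against PBS (53.2%) and 61.8% at 5 mM against 100 µM (46.7%). No pairing of the arrays by replicate number was visible. Deviations from group means correlated between -0.178 and 0.148 over 10 same-numbered pairs and between -0.162 and 0.177 over 37 different-numbered pairs. Of 12 arrays, 4 matched their own number best. These values do not exclude a pairing. With the replicate block, Ccnd1 lost its calls against PBS on the brighter probe set at 100 µM (adjusted p = 0.0571) and the dimmer one at 5 mM (0.113), as did Cdc20 at 100 µM (0.0559) and Cenpa at 5 mM (0.0963). For these losses the cause was not tested.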
